A study of Mus musculus with 42 samples.

Results

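Untreated 53bp1-/- pre-B cell lines were set against untreated H2ax-/- and Mdc1-/- lines, 3 arrays against 6, out of the 42 arrays of a series on the response to ionizing radiation. The members were the arrays labelled as mock-treated and collected at 2 h, and they were chosen by genotype and treatment alone. Each array measured 1 line. The lines came from the bone marrow of mice aged 3 to 5 weeks and had been transformed by v-abl, a viral oncogene that encodes a tyrosine kinase, delivered in a pMSCV vector. All of them, WT included, carried the Em-Bcl2 transgene, in which an immunoglobulin heavy-chain enhancer drives the survival gene Bcl2 in lymphoid cells.

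The 53bp1-/- lines were labelled as mutated in Trp53bp1, the H2ax-/- lines in the histone variant gene H2ax and the Mdc1-/- lines in Mdc1, with 3 lines each, and 3 untreated lines were WT. The mutated alleles, the mouse strains and whether a line was 1 clone are not given in the sources used here. Untreated lines labelled Atm-/-, Scid or Mre11A/A entered the fit only through their spread within a genotype, 21 untreated arrays in all. The labels call the replicates biological, and their number limits the precision.

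The 3 proteins act one after another on the chromatin beside a DNA double-strand break. The Atm kinase phosphorylates H2ax there, Mdc1 binds the phosphorylated histone and brings in ubiquitin ligases, and 53bp1 is recruited to the modified chromatin, where it protects the ends from resection and favours their joining. In developing B cells such breaks are made on purpose when antigen-receptor genes recombine. 53bp1 also binds p53, which gave the protein its name.

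Markers of the labelled cell type were high, and those of other lineages were low. The summed signal of 14 pre-B markers was 103700 to 119400 in 53bp1-/- lines, against 101400 to 128200 in the 6 H2ax-/- and Mdc1-/- lines. Of 14 T cell and NK markers 3 passed the filter on low signals, and their list summed to 534 to 731 in 53bp1-/- lines and 417 to 755 in the others, with the defining Cd3d at 1.71 to 5.60 and 2.69 to 13.8. Of 16 myeloid markers 9 passed, and the list summed to 506 to 621 in 53bp1-/- lines and 512 to 1058 in the others. Erythroid lists (397 to 431 against 409 to 568) and stromal lists (626 to 799 against 625 to 852) overlapped too. Of 13 plasma and mature B-cell markers 11 passed, and the list summed to 11520 to 17010 in 53bp1-/- lines and 10760 to 16450 in the others. These sums do not fix the stage within the B lineage. In bulk RNA, fewer cells of a type and less RNA per cell cannot be told apart. Array medians of the 9 arrays lay between 62.3 and 75.6, and pairs of arrays correlated at 0.958 to 0.971 within a genotype and at 0.951 to 0.970 between 53bp1-/- and the other mutants over all genes.

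The proximal promoters of 3 genes are shown because the results turn on them: the targeted gene and a pair of neighbouring zinc finger genes on chromosome 8 that were both higher in 53bp1-/- lines. They come from RefSeq (assembly GRCm38.p6) and run from 250 bases before to 50 bases after the annotated start. Of the 27 genes that differed, 22 had an entry there. Capitals mark a GC box (GGGCGG) or a CCAAT box (CCAAT) on either strand, and where the reverse complement matched, that is what stands in capitals. TATA boxes (TATAAA) were searched as well. The 3 sequences lie at chr2:121271358-121271657 (minus strand, Trp53bp1), chr8:71881818-71882117 (plus strand, Zfp709) and chr8:71922575-71922874 (plus strand, Zfp617).
Trp53bp1: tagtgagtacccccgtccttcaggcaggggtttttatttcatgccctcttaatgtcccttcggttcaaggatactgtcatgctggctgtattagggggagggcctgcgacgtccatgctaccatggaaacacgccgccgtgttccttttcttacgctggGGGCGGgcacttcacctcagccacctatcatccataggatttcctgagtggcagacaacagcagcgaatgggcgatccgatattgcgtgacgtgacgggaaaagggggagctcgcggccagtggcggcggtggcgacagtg
Zfp709: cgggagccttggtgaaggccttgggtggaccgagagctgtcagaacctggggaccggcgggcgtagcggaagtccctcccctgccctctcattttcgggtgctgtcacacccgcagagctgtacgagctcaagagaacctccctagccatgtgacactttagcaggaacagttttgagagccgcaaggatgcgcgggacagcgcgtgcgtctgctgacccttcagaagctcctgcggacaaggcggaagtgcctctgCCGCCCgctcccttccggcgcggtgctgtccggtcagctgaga
Zfp617: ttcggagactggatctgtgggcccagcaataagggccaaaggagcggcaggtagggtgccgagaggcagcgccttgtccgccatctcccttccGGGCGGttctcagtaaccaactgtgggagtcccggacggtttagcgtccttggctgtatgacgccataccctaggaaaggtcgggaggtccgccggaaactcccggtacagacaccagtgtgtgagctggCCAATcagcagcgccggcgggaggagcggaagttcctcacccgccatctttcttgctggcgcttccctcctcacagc

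Each of the 3 windows held 1 GC box, which 35.7% of the 32851 RefSeq promoters of the same length hold. Zfp617 held 1 CCAAT box as well, a motif in 37.4% of promoters, and none held a TATA box, which 13.6% hold. Their GC content was 57.3% for Trp53bp1, 63.7% for Zfp709 and 62.3% for Zfp617, beside a median of 52.7% over all promoters. The matches are descriptions of the letters and were not related to any measurement.

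Trp53bp1 itself was lower in 53bp1-/- lines, but not absent. Its best-detected probe set read 1291, 1018 and 753 in 53bp1-/- lines, against 1823, 1765 and 1660 in H2ax-/- lines and 2574, 2164 and 2732 in Mdc1-/- lines. All 3 values lay below all 6 others. The difference was -1.05 ± 0.15 on the log2(signal + 16) scale (SE, n = 3 and 6 arrays; limma, Benjamini-Hochberg adjusted p = 0.0021 over 12363 genes). It was -0.80 against H2ax-/- lines alone (adjusted p = 0.062) and -1.30 against Mdc1-/- lines alone (adjusted p = 0.0012). WT lines read 1849, 1434 and 1420, above each 53bp1-/- line, with a difference of -0.63 (adjusted p = 0.061).

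The 6 Trp53bp1 probe sets that passed the filter did not give 1 answer. The second brightest read 505, 295 and 361 in 53bp1-/- lines, against 783, 612 and 777 in H2ax-/- and 1151, 1088 and 1311 in Mdc1-/- lines, a difference of -1.25 ± 0.16. The next read 85.9, 32.9 and 57.0 in 53bp1-/- lines, against 148, 128 and 82.4 in H2ax-/- and 239, 225 and 163 in Mdc1-/- lines (-1.27 ± 0.27, adjusted p = 0.068 over all probe sets). Another, at 143, 116 and 132 in 53bp1-/- lines, against 123, 99.5 and 98.7 in H2ax-/- and 132, 143 and 183 in Mdc1-/- lines, differed by 0.03. The remaining pair was dim, with values from 1.96 to 125 over these 9 arrays, and differed by -0.01 and -0.63. Which part of the transcript each probe set reads relative to the mutated stretch is not given in the sources used here, so a level above 0 does not test the label. With the mean of all 6 probe sets the difference was -0.70 (adjusted p = 0.34).

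**Figure D1:**
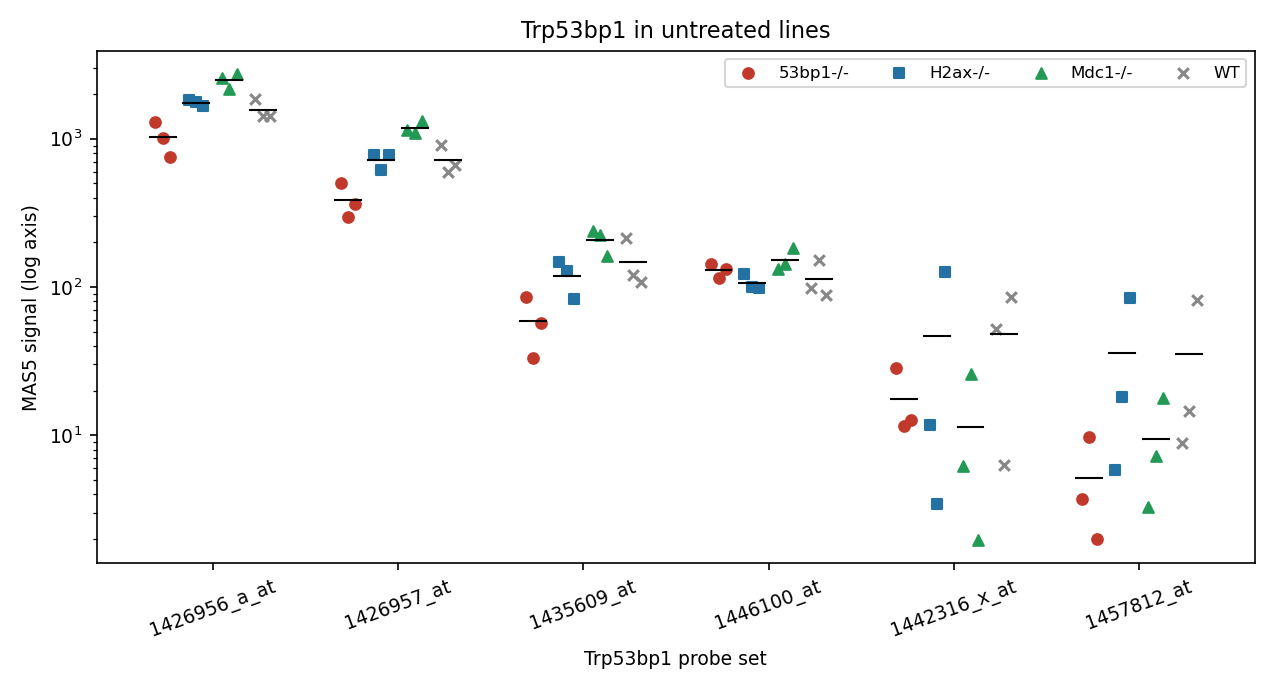
MAS5 signal (log axis) of the 6 Trp53bp1 probe sets in untreated lines, with 3 lines per genotype as points and their mean as a bar; 53bp1-/- stands left of H2ax-/-, Mdc1-/- and WT. On the 2 brightest probe sets the 53bp1-/- lines (753 to 1291 and 295 to 505) lie below all H2ax-/- and Mdc1-/- lines, and on the other 4 probe sets they overlap.

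The other targeted genes matched their labels in the same arrays. H2ax read 11130, 10970 and 12740 in 53bp1-/- lines and 10250, 11530 and 10370 in Mdc1-/- lines, against 87.9, 18.7 and 51.8 in H2ax-/- lines. H2ax was therefore among the genes called in the pooled comparison (3.83 ± 0.23), although 53bp1-/- and Mdc1-/- lines differed by 0.11. Mdc1 read 367, 565 and 447 in 53bp1-/- lines and 472, 475 and 382 in H2ax-/- lines, against 13.4, 177 and 22.04 in Mdc1-/- lines. Its pooled difference of 1.503 did not pass the test (adjusted p = 0.19).

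Few genes separated the 53bp1-/- lines from the other mutants. Of 12363 genes 27 passed (0.218%), 14 of them higher (0.113%) and 13 lower (0.105%) in 53bp1-/- lines. At an unadjusted p under 0.05 there were 770 genes (6.23%). The 3 and 6 arrays did not overlap for 491 genes (3.97%), 176 higher (1.42%) and 315 lower (2.55%) in 53bp1-/- lines, and 25 of the 27 were among them, H2ax and Pls3 being the exceptions. All 27 differences had the same sign against H2ax-/- and against Mdc1-/- lines taken singly. The 27 were chosen on the mean of both differences, which favours a shared sign, so nothing is read from it. The count rested on single arrays: it was 9, 11 and 20 without 53bp1-/- replicates 1, 2 and 3. It was 17, 10 and 26 without H2ax-/- replicates 1, 2 and 3, and 13, 17 and 15 without Mdc1-/- replicates 1, 2 and 3. Calls on Abhd14b, Hspb6, Rnf150, Zfp709 and Zfp868 were each lost in 7 of these 9 fits. The call on Zfp617 was lost in 6, those on Ciapin1, Pls3 and Vwa8 in 5 each, and that on Pttg1 in 4.

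Against each mutant alone 53bp1-/- lines differed in 25 genes for H2ax-/- (0.202%) and in 14 for Mdc1-/- (0.113%). Both counts moved when 1 array was left out, the first to between 9 and 19 and the second to between 9 (without 53bp1-/- replicate 2) and 24 (without H2ax-/- replicate 3). Of the 27 genes 6 also passed in both single comparisons and 9 passed in neither. As a scale, H2ax-/- lines differed from 53bp1-/- and Mdc1-/- lines in 17 genes (0.138%; 5 to 12 with 1 array left out), and Mdc1-/- lines from 53bp1-/- and H2ax-/- lines in 19 (0.154%; 5 to 22). These comparisons share arrays with the main one.

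**Figure D2:**
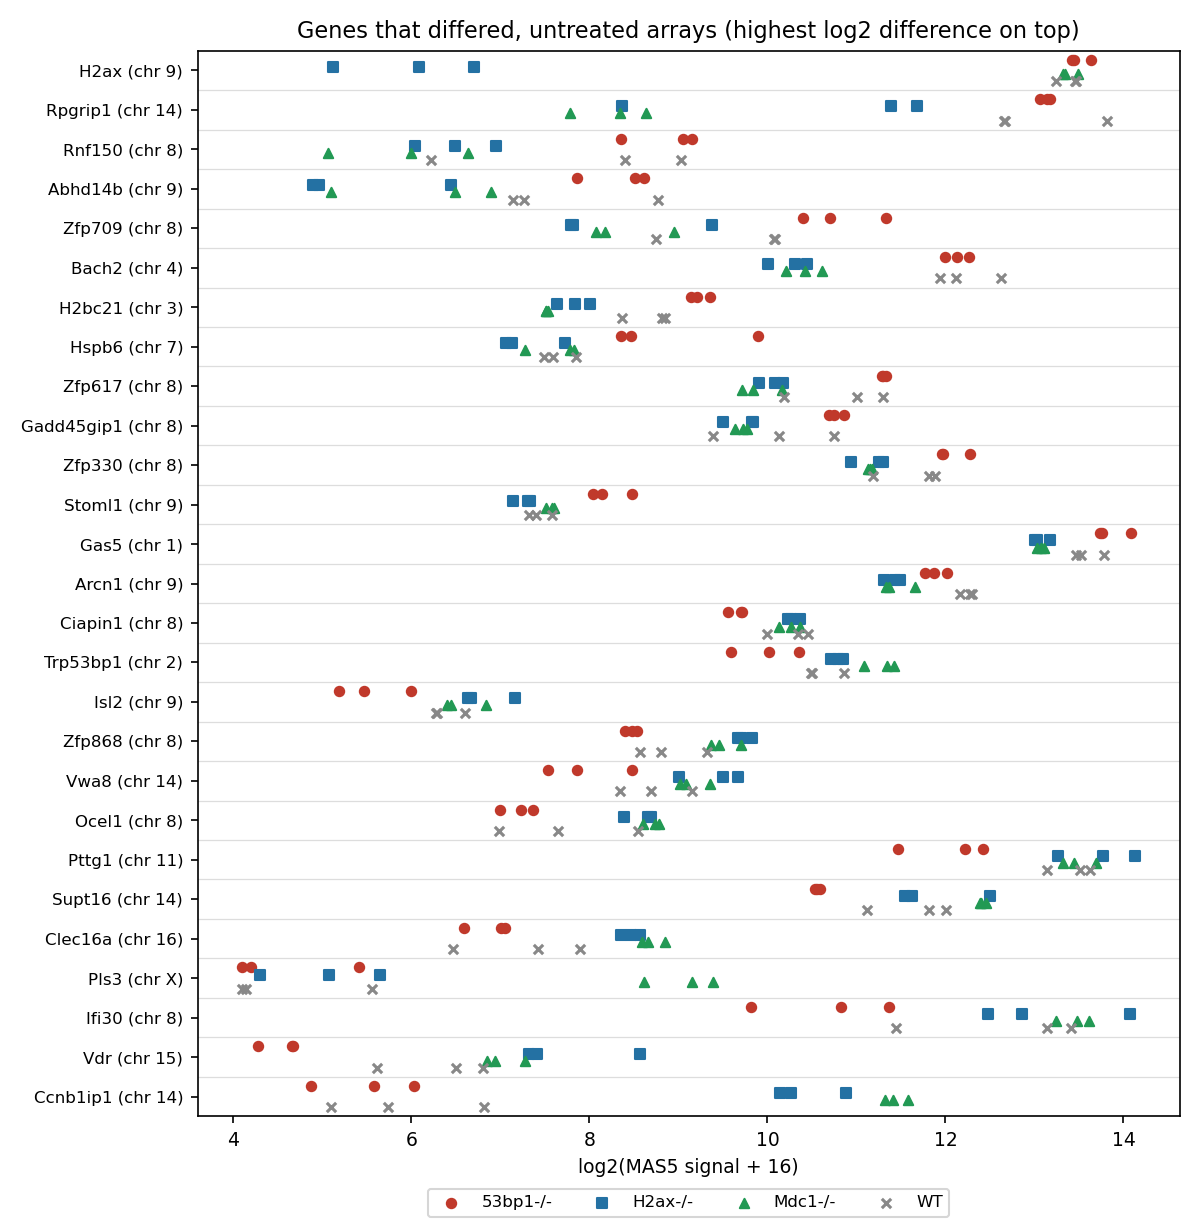
Signal of the 27 genes that differed, as log2(MAS5 signal + 16) per untreated line (3 points per genotype), with 53bp1-/- above H2ax-/-, Mdc1-/- and WT within each gene and the highest log2 difference on top. Ccnb1ip1 at the bottom shows 53bp1-/- and WT lines at the low end and H2ax-/- and Mdc1-/- lines at the high end; for H2ax the H2ax-/- lines stand apart, and for Pls3 the Mdc1-/- lines.

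Ccnb1ip1, which encodes a ubiquitin ligase-like protein needed for meiotic crossing-over in mice, had the largest fall. It read 32.0, 49.4 and 13.2 in 53bp1-/- lines, against 1114, 1216 and 1873 in H2ax-/- lines and 2536, 2704 and 3043 in Mdc1-/- lines. The 53bp1-/- values lie below the array medians, and the 6 others lie far above them. The difference was -5.44 ± 0.63 (adjusted p = 0.00054). WT lines read 37.4, 96.9 and 18.4, so 53bp1-/- and WT lines overlapped (difference -0.39).

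Rpgrip1, the gene of a scaffold protein of the photoreceptor cilium, was higher. It read 8569, 9240 and 9000 in 53bp1-/- lines, against 3272, 2656 and 313 in H2ax-/- lines and 383, 308 and 204 in Mdc1-/- lines (3.76 ± 0.56, adjusted p = 0.0051). Its highest values among the 6 were 2 of the H2ax-/- lines. WT lines read 6445, 6484 and 14420, on both sides of the 53bp1-/- lines. Its other 2 probe sets were dimmer and had the same sign without passing (0.89 and 2.07). With the mean of the 3 probe sets the difference was 2.24 (adjusted p = 0.010), and with H2ax-/- and Mdc1-/- as 1 group of a fit on the 9 arrays alone the call was lost (adjusted p = 0.21).

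Supt16, the large subunit of the histone chaperone FACT, stood next to Rpgrip1 in the order of measured genes and differed in the opposite direction. It read 1490, 1529 and 1473 in 53bp1-/- lines, against 2982, 3131 and 5794 in H2ax-/- lines and 5608, 5332 and 5368 in Mdc1-/- lines (-1.59 ± 0.20, adjusted p = 0.0012). Supt16 was also lower than in WT lines, which read 4109, 3589 and 2207 (-1.08, adjusted p = 0.022).

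Histone and transcription-factor genes were among those that rose. H2bc21, a replication-independent histone H2B gene, read 578, 548 and 638 in 53bp1-/- lines, against 212, 183 and 240 in H2ax-/- and 167, 167 and 170 in Mdc1-/- lines (1.56 ± 0.19, adjusted p = 0.00058). Bach2, a repressor that acts at the pre-B cell stage, read 4896, 4466 and 4072 in 53bp1-/- lines, against 1377, 1257 and 1015 in H2ax-/- and 1165, 1556 and 1360 in Mdc1-/- lines (1.79 ± 0.36, adjusted p = 0.047). WT lines read 3924, 4437 and 6275 for Bach2, so 53bp1-/- lines lay within the WT range. The other 2 Bach2 probe sets differed by 0.39 and 0.60 and did not pass, and with the mean of the 3 probe sets the difference was 0.93 (adjusted p = 0.32). The call was lost when any 1 of the 9 arrays was left out.

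Gas5, a non-coding host gene of small nucleolar RNAs, passed on 4 of 4 probe sets. The brightest read 17350, 13820 and 13650 in 53bp1-/- lines, against 8346, 8227 and 9227 in H2ax-/- and 8344, 8844 and 8597 in Mdc1-/- lines (0.79 ± 0.12, adjusted p = 0.0088). The other 3 probe sets differed by 0.80 to 1.30. WT lines read 11770, 11280 and 14100 and overlapped the 53bp1-/- lines.

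Of the remaining genes that rose, Hspb6, a small heat shock protein gene, read 337, 311 and 933 in 53bp1-/- lines, against 118 to 212 in the 6 others (1.43 ± 0.27), with replicate 3 far above replicates 1 and 2. Without 53bp1-/- replicate 3 the Hspb6 difference was 0.94 (adjusted p = 0.14). Abhd14b, a gene of the hydrolase-fold family, read 377, 348 and 216 in 53bp1-/- lines, against 13.8 to 103 (2.53 ± 0.49). Stoml1, a stomatin-like membrane protein gene, read 340, 248 and 266 in 53bp1-/- lines, against 125 to 178 (0.81 ± 0.15), a call lost in 8 of the 9 fits that left out 1 array. Stoml1 and Hspb6 were also above WT lines (0.78, adjusted p = 0.025, and 1.26, adjusted p = 0.047). Arcn1, a subunit of the coat of Golgi transport vesicles, differed least (0.46 ± 0.09) and passed in 5 of 22 alternative settings. With the mean of its 3 probe sets Arcn1 differed by 0.21. It read 3480, 3734 and 4121 in 53bp1-/- lines, below WT lines at 4582, 4931 and 5010 (-0.36).

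The genes that fell included a nuclear receptor and a mitotic regulator. Vdr, the vitamin D receptor gene, read 9.23, 3.39 and 9.50 in 53bp1-/- lines, against 144, 155 and 363 in H2ax-/- and 99.7, 139 and 107 in Mdc1-/- lines (-2.86 ± 0.39, adjusted p = 0.0021). Since 16 was added before taking logs, a change at such low signals is understated: the Vdr difference was -4.29 with 1 added and -1.62 with 64 added, and passed in both. Pttg1, or securin, which holds the protease separase inactive until anaphase, read 4747, 2823 and 5483 in 53bp1-/- lines, against 9857, 13910 and 17930 in H2ax-/- and 13170, 11140 and 10180 in Mdc1-/- lines (-1.56 ± 0.28, adjusted p = 0.0245). All 3 of its probe sets were lower and 2 of them passed, and it was below WT lines too (-1.39, adjusted p = 0.031). The Pttg1 call was lost in 4 of the 9 fits that left out 1 array.

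Clec16a, a gene involved in mitochondrial turnover, read 117, 80.3 and 113 in 53bp1-/- lines, against 310 to 445 in the 6 others (-1.70 ± 0.23, adjusted p = 0.0021). Isl2, a homeobox gene of motor neurons, read 20.3, 28.1 and 47.6 in 53bp1-/- lines, against 68.8 to 127 (-1.15 ± 0.23), a call lost in 8 of the 9 fits that left out 1 array and with 64 added (-0.67). Vwa8, which encodes a mitochondrial ATPase-like protein, read 169, 216 and 342 in 53bp1-/- lines, against 499, 797 and 710 in H2ax-/- and 640, 502 and 527 in Mdc1-/- lines (-1.31 ± 0.24). Pls3, an actin-bundling protein gene, read 1.18, 2.39 and 26.5 in 53bp1-/- lines and 3.62, 17.7 and 34.3 in H2ax-/- lines, against 555, 374 and 654 in Mdc1-/- lines, so its pooled difference (-2.46 ± 0.44) came from the Mdc1-/- lines. With 1 added in place of 16 the Pls3 difference was -3.88 and did not pass (adjusted p = 0.27), and with 64 added it was -1.57 and passed.

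Genes near Trp53bp1 on chromosome 2 did not pass the test. Of the 25 measured genes on each side of Trp53bp1, 0 of 50 passed, and the same held for 10, 50 and 100 on each side (0 of 20, 100 and 200; limma, adjusted p). Trp53bp1 was the only one of 983 measured chromosome 2 genes to pass (0.102%, beside 0.218% over all genes). Among the 50 neighbours, Tmem87a passed under 3 of the other settings, and Bloc1s6 passed without H2ax-/- replicate 3.

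At an unadjusted p under 0.05 there were 9 of the 50 (18%), 2 higher and 7 lower in 53bp1-/- lines, beside 6.55% of the other 932 genes of the chromosome and 6.22% of all other genes. The median absolute difference was 0.22 in the 50 neighbours, against 0.13 on the rest of chromosome 2 and 0.14 over all other genes. The signed median was -0.11, against -0.05 on the rest of the chromosome. The share of the 50 whose 3 and 6 arrays did not overlap was 6%, against 3.43% on the rest of the chromosome and 3.96% of all other genes. The share at an unadjusted p under 0.05 was 20% for the nearest 10 on each side, 16% for 50 and 11% for 100, sets that are nested in each other. Neighbouring genes are not independent of each other, and no test was made of these shares.

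The nearest genes showed small differences that were mostly negative. Of the 5 nearest on each side 9 of 10 were lower in 53bp1-/- lines, by 0.11 to 0.47 on the log2 scale. Of the 932 genes on the rest of chromosome 2, 590 were lower as well. On one side lay Tubgcp4, a component of the gamma-tubulin complex (-0.20), Zscan29, a zinc finger gene (-0.46), Adal, an adenosine deaminase-like gene (-0.24), Lcmt2 (-0.35) and Ccndbp1 (-0.11). On the other lay Map1a, a microtubule-associated protein gene (-0.31), Ppip5k1, an inositol pyrophosphate kinase gene (-0.47), Strc (-0.15), Catsper2, a subunit gene of a sperm calcium channel (0.21), and Pdia3, a disulfide isomerase gene of the endoplasmic reticulum (-0.11). Map1a, Strc, Catsper2 and Pdia3 differed by less than their SE of 0.40, 0.51, 0.43 and 0.17. Adjusted p-values of the 50 neighbours ran from 0.0765 to 1.00.

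For 6 of these 9 genes the negative difference was larger against Mdc1-/- lines, and Lcmt2, Adal, Tubgcp4 and Pdia3 were not lower than in H2ax-/- lines. Tubgcp4, whose annotated span overlaps that of Trp53bp1 at its 3′ end, read 1250, 1233 and 1316 in 53bp1-/- lines, against 1273, 1173 and 1147 in H2ax-/- lines and 1809, 1686 and 1836 in Mdc1-/- lines. The 53bp1-/- lines were within 0.08 of the H2ax-/- lines and 0.48 below the Mdc1-/- lines. Lcmt2 read 569, 387 and 439 in 53bp1-/- lines, against 480, 403 and 481 in H2ax-/- and 751, 755 and 783 in Mdc1-/- lines, a difference of 0.02 from H2ax-/- and -0.71 from Mdc1-/- lines. Ppip5k1 differed by -0.23 from H2ax-/- and by -0.71 from Mdc1-/- lines. Trp53bp1 was likewise highest in Mdc1-/- lines, but unlike Tubgcp4, Lcmt2 and Ppip5k1 it was also below every H2ax-/- line. Ccndbp1 was below every H2ax-/- and Mdc1-/- line too, with a pooled difference of -0.11.

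The largest differences near Trp53bp1 were positive, and they were wider against H2ax-/- lines, where most values were low, than against Mdc1-/- lines. Tmem87a, a Golgi membrane protein gene 17 measured genes away, read 1561, 1578 and 1688 in 53bp1-/- lines, against 14.8, 52.9 and 63.0 in H2ax-/- lines and 827, 1566 and 767 in Mdc1-/- lines (2.78 ± 0.61, adjusted p = 0.0765). Bloc1s6, a subunit gene of a complex that forms lysosome-related organelles, 21 measured genes away on the other side, read 1722, 1589 and 2039 in 53bp1-/- lines, against 21.5, 24.2 and 913 in H2ax-/- and 775, 1697 and 935 in Mdc1-/- lines (2.36 ± 0.65, adjusted p = 0.28). Without H2ax-/- replicate 3, the array at 913, the Bloc1s6 difference was 3.12 (limma, adjusted p = 8.6e-08), and with any other array left out its adjusted p was 0.285 or more. Against Mdc1-/- lines alone these genes differed by 0.68 and 0.72. The 53bp1-/- lines were also above every WT line for both genes. WT lines read 528, 471 and 44.2 for Tmem87a (2.69, limma, adjusted p = 0.056) and 935, 999.5 and 1132 for Bloc1s6 (0.79, adjusted p = 0.68). Mre11A/A lines read 43.8, 34.2 and 68.9 for Tmem87a, near the H2ax-/- lines. Both genes were named after their values had been seen. Frmd5, at -1.23, was the lowest neighbour (adjusted p = 0.70), and B2m, the light chain of MHC class I, differed by -0.09.

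**Figure D3:**
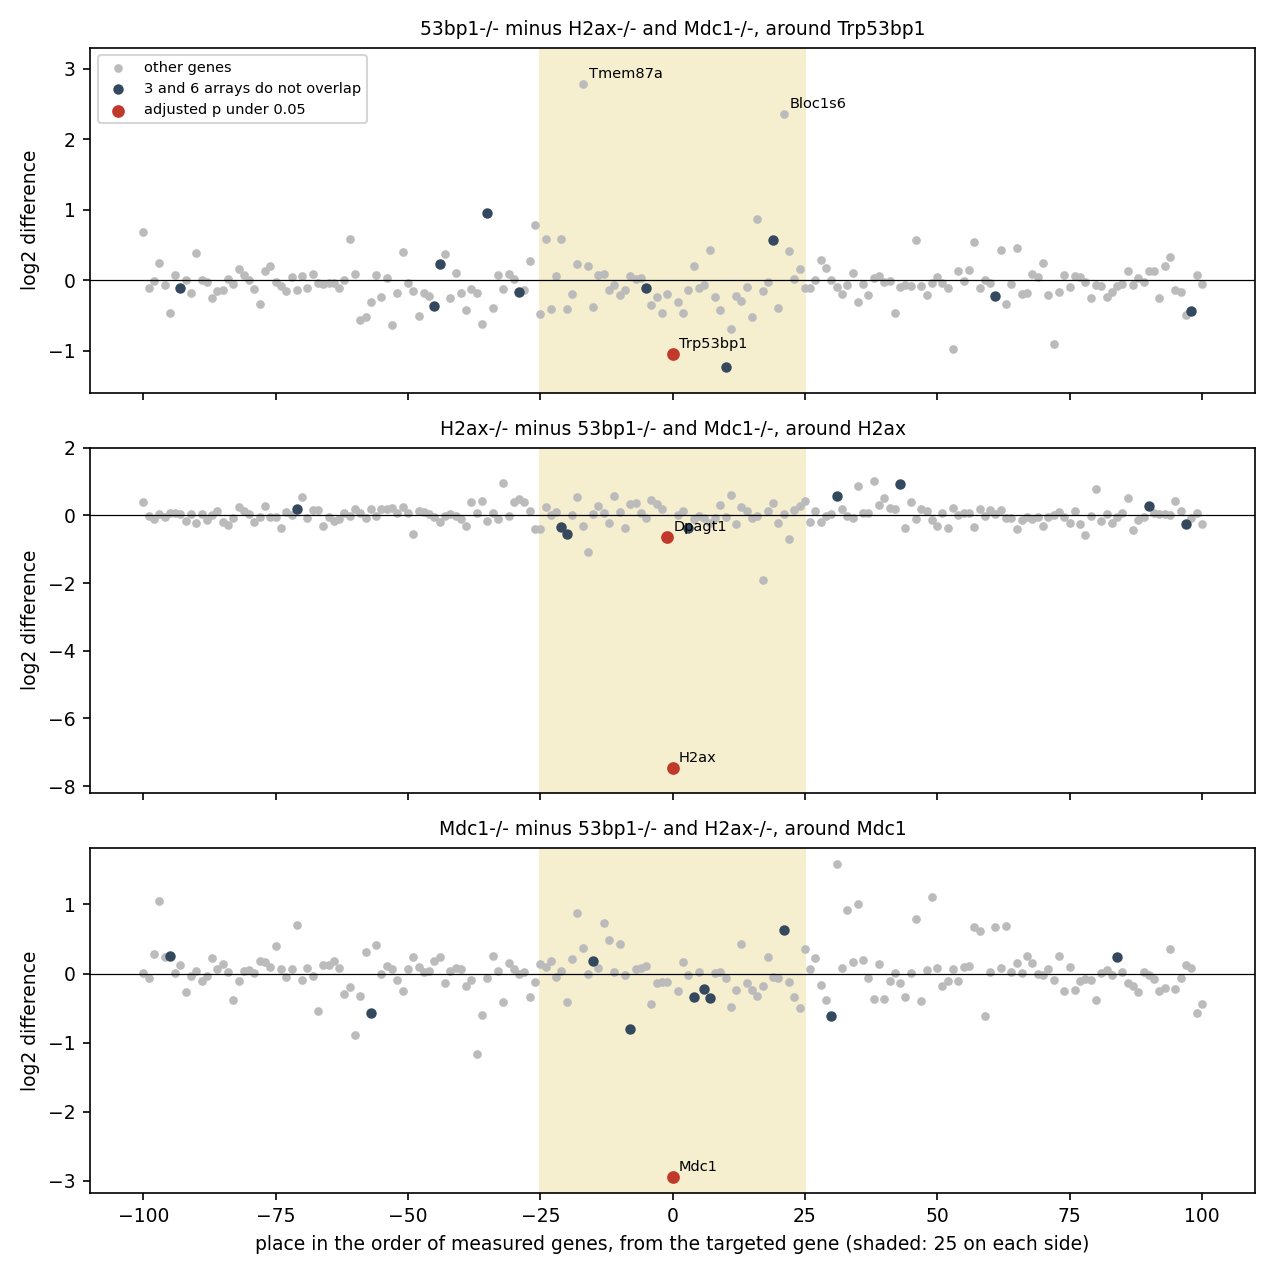
Log2 difference by place in the order of measured genes, 100 on each side, around Trp53bp1 (53bp1-/- minus H2ax-/- and Mdc1-/-), H2ax (H2ax-/- minus 53bp1-/- and Mdc1-/-) and Mdc1 (Mdc1-/- minus 53bp1-/- and H2ax-/-); shading marks 25 on each side, and vertical scales differ between panels. Within the shading 0 of 50 neighbours of Trp53bp1, 1 of 50 of H2ax and 0 of 50 of Mdc1 are red, beside the targeted gene itself.

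The surroundings of the other targeted genes, each in the comparison of its own mutant, gave a scale. Around H2ax 1 of 50 neighbours passed (2%, beside 0.138% over all genes), 16% had an unadjusted p under 0.05 (6.19% over all genes) and the median absolute difference was 0.24. The gene that passed was Dpagt1, the immediate neighbour, at 439, 414 and 415 in H2ax-/- lines, against 647, 689 and 826 in 53bp1-/- and 625, 606 and 654 in Mdc1-/- lines (-0.65 ± 0.10, adjusted p = 0.0085). Around Mdc1 0 of 50 passed, 12% had an unadjusted p under 0.05 (5.96% over all genes) and the median absolute difference was 0.18. Arcn1, which passed in the comparison of 53bp1-/- lines, lies 12 measured genes from H2ax.

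The genes that differed were gathered on other chromosomes. Chromosome 8 held 9 of the 27 among 654 measured genes (1.38%) and chromosome 14 held 4 of 418 (0.957%), beside 0.218% over all genes. Chromosome 9, with H2ax, held 5 of 676 (0.74%). The 3 and 6 arrays did not overlap for 9.33% of chromosome 14 genes, 7.95% of chromosome 8 genes and 5.62% of chromosome 9 genes, against 3.97% over all genes, and for at most 4.4% on each other chromosome. On chromosome 2 the share was 3.66%. The grouping was noticed in these data and no test of it was made.

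On chromosome 8 the genes went both ways within 1 stretch. From Zfp868 to Gadd45gip1, 140 consecutive measured genes held 8 that passed (5.71%), 5 higher and 3 lower. Among these 140 genes, 35 had arrays that did not overlap (25%), 19 higher and 16 lower. Both ends were set at genes that passed, which raises these shares. A longer run, from Zfp868 to Ciapin1, had 210 measured genes, 9 that passed (4.29%) and 41 whose arrays did not overlap (19.5%). Zfp709, a zinc finger gene, read 2561, 1652 and 1340 in 53bp1-/- lines, against 649, 209 and 205 in H2ax-/- and 478, 254 and 274 in Mdc1-/- lines (2.45 ± 0.46, adjusted p = 0.032). Zfp617, another zinc finger gene with only 1 measured gene between them, read 2559, 2494 and 2481 in 53bp1-/- lines, against 1139, 943 and 1071 in H2ax-/- and 903, 823 and 1134 in Mdc1-/- lines (1.32 ± 0.23, adjusted p = 0.0245). Both had 2 probe sets and both probe sets passed.

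Zfp330 and Rnf150 were direct neighbours in that stretch and both rose. Zfp330, a zinc finger gene, read 4948, 3986 and 4002 in 53bp1-/- lines, against 1943 to 2507 (0.91 ± 0.16, adjusted p = 0.019). Rnf150, a RING finger gene, read 313, 554 and 516 in 53bp1-/- lines, against 17.3 to 108 (2.66 ± 0.49, adjusted p = 0.030). Gadd45gip1, a gene of a protein of the mitochondrial ribosome, read 1843, 1636 and 1710 in 53bp1-/- lines, against 709 to 898 (1.05 ± 0.21), whereas its other probe set, at 54.9, 74.8 and 53.5 in 53bp1-/- lines, against 110 to 139, differed by -0.90 and did not pass. With the mean of both probe sets Gadd45gip1 differed by 0.08 (adjusted p = 0.99).

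In the same stretch Ifi30, a lysosomal thiol reductase gene of antigen processing, fell, with 883, 1803 and 2621 in 53bp1-/- lines, against 5699, 7408 and 17170 in H2ax-/- and 11410, 9655 and 12510 in Mdc1-/- lines (-2.62 ± 0.52, adjusted p = 0.043). Ocel1, an occludin-related gene, read 149, 111 and 135 in 53bp1-/- lines, against 318 to 423 (-1.45 ± 0.28). Zfp868, a zinc finger gene, read 322, 340 and 356 in 53bp1-/- lines, against 646 to 894 (-1.15 ± 0.21, adjusted p = 0.027). Further along the chromosome Ciapin1, a factor of iron-sulfur cluster assembly, read 827, 819 and 739 in 53bp1-/- lines, against 1102 to 1309 (-0.61 ± 0.10, adjusted p = 0.019), and it was also below WT lines (-0.60, adjusted p = 0.013). Calls on Ifi30, Ocel1 and Gadd45gip1 were lost when any 1 of the 9 arrays was left out.

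On chromosome 14, Ccnb1ip1, Rpgrip1 and Supt16 lay within 18 consecutive measured genes. Of these 18 genes 8 had arrays that did not overlap (44.4%, beside 3.97% of all genes). The run was set to start at Ccnb1ip1 and end at Supt16, and the 3 genes are among the 8, which raises the share. Vwa8, also on this chromosome, lay 182 measured genes beyond. Its neighbour Rgcc, named after its values had been seen, had the largest positive difference of all genes, at 5431, 2634 and 1556 in 53bp1-/- lines, against 143, 161 and 195 in H2ax-/- and 184, 22.9 and 362 in Mdc1-/- lines (4.14 ± 0.92), and it did not pass (adjusted p = 0.088). Rgcc encodes a regulator of cell cycle progression that responds to p53. Over all stretches of 51 consecutive measured genes, the most with arrays that did not overlap was 15 on chromosomes 8 and 14, 10 on chromosome 9 and at most 7 on each other chromosome, with 6 on chromosome 2.

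**Figure D4:**
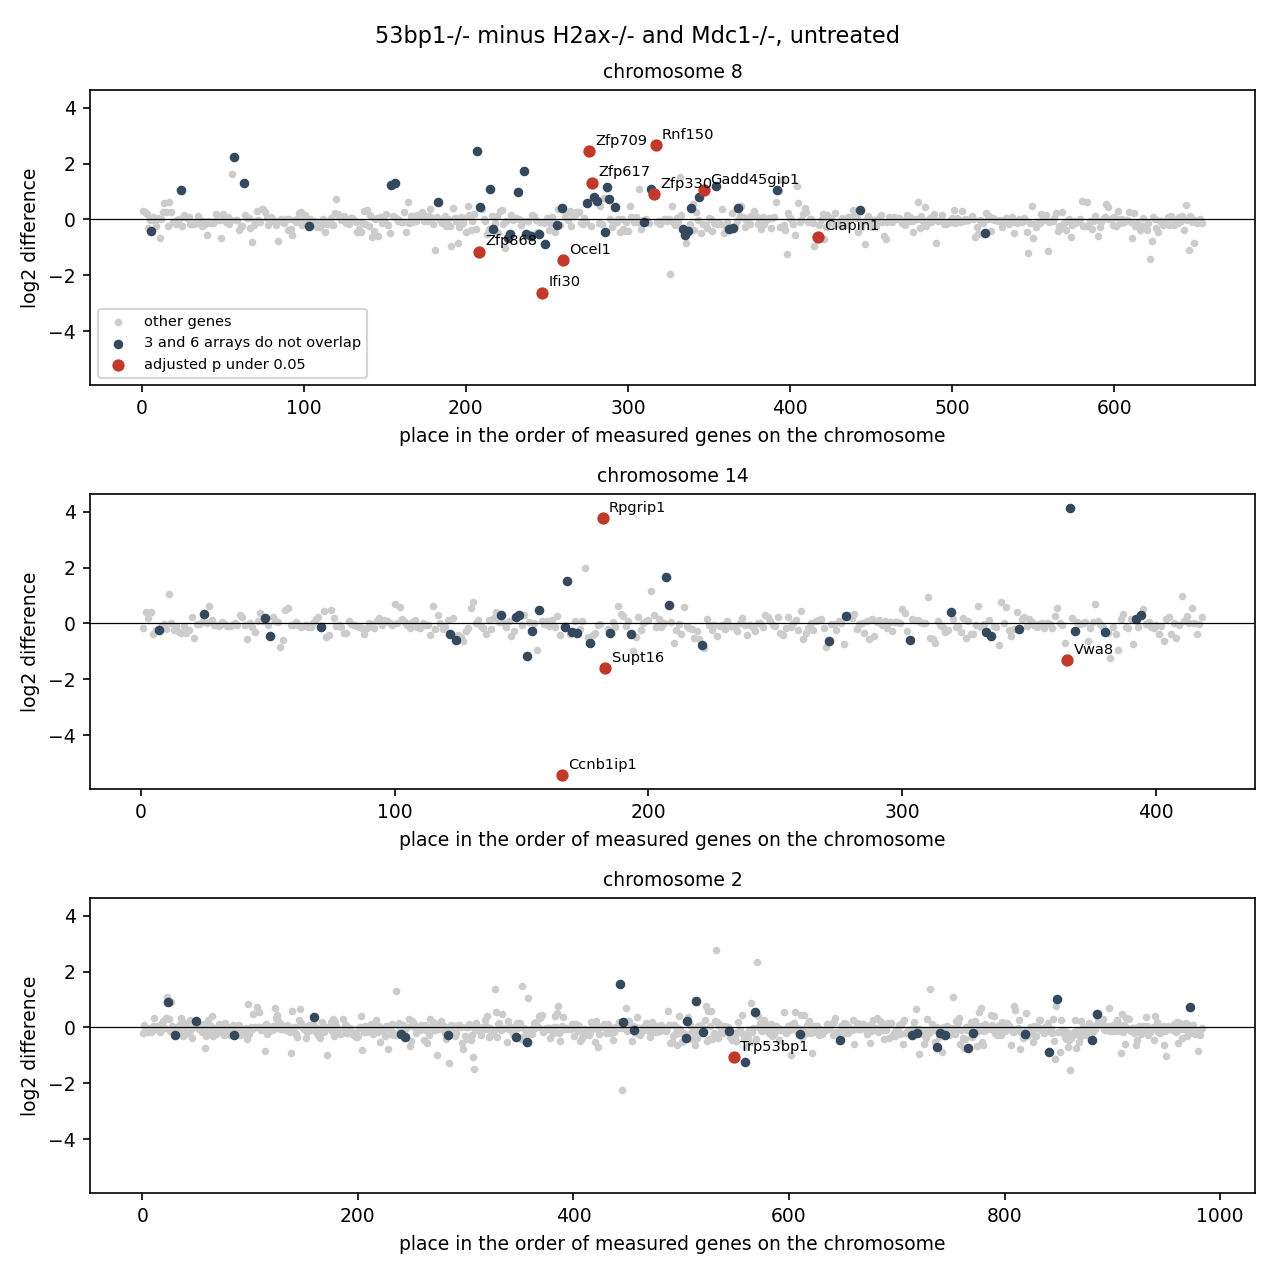
Log2 difference, 53bp1-/- minus H2ax-/- and Mdc1-/-, by place in the order of measured genes on chromosomes 8, 14 and 2; red points passed (9, 4 and 1), dark points have 3 and 6 arrays that do not overlap. The dark and red points of chromosome 8 crowd between Zfp868 and Gadd45gip1 on both sides of 0, and those of chromosome 2 are spread along it.

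Against WT lines the 27 genes divided. Of the 27 genes 5 passed against WT in the same direction, where 254 genes passed in all (2.05%). These were Hspb6, Stoml1, Supt16, Pttg1 and Ciapin1. The 53bp1-/- lines did not overlap WT lines, in either direction, for 14 of the 27 genes, beside 23.1% of all genes, and overlapped them for the other 13. For Arcn1, among the 14, the 53bp1-/- lines lay below every WT line although above the H2ax-/- and Mdc1-/- lines. For Zfp709, Stoml1, Pttg1 and Isl2 they lay outside all 18 other untreated arrays, as did 45 of all genes (0.364%). The 27 genes were chosen on these same 53bp1-/- arrays, which favours such separation, so nothing is read from their counts beside those shares. The highest Zfp709 value among those 18 was 1229, against a lowest 53bp1-/- value of 1340.

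Single WT lines differed on chromosome 8. Set against the mean of each side, WT replicate 4 was nearer the 53bp1-/- mean for 8 of the 9 chromosome 8 genes, WT replicate 1 for 6 and WT replicate 3 for 0. For Zfp709 WT replicates 1 and 4 read 1069 and 1062 and replicate 3 read 412. For Rnf150 they read 322 and 505, against 58.7 in replicate 3. Over all 27 genes the counts nearer the 53bp1-/- mean were 16, 9 and 21 for WT replicates 1, 3 and 4. They were 17, 21 and 22 for Mre11A/A lines, 15 to 16 for Scid lines and 8, 10 and 14 for Atm-/- lines.

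The same lines were measured again 2 h after 1 Gy, which repeats the measurement but not the lines. The same comparison gave 21 genes in irradiated arrays (0.17%), 11 higher (0.089%) and 10 lower (0.0809%), and 5 and 6 without 53bp1-/- replicates 1 and 2. All 27 genes kept their sign there, 14 passed again, and for 24 the 3 and 6 irradiated arrays did not overlap, beside 4.72% of all genes. Trp53bp1 read 1153, 736 and 916 in irradiated 53bp1-/- lines, against 1613, 1669 and 1733 in H2ax-/- and 2352, 2013 and 2357 in Mdc1-/- lines (-1.06 ± 0.14). Ccnb1ip1 read 39.6, 2.05 and 32.9 in irradiated 53bp1-/- lines, against 1079 to 2476 (-5.63 ± 0.70).

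Isl2 was 1 of the genes whose difference was smaller in irradiated arrays, as was Vdr (-1.97). Isl2 read 52.1, 73.6 and 87.9 in irradiated 53bp1-/- lines, against 73.1, 157 and 111 in H2ax-/- and 102, 57.4 and 54.6 in Mdc1-/- lines, and the groups overlapped (-0.26, adjusted p = 0.95). The change of the difference with dose passed for 0 of 12363 genes (limma). At an unadjusted p under 0.05 it included 6 of the 27, namely H2ax, Clec16a, Vdr, Bach2, Gas5 and Isl2, beside 3.31% of all genes. The 27 were chosen on the untreated difference, which is part of this change, so nothing is read from their count.

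Among genes that act with 53bp1 at breaks, the targeted genes stood apart and the rest did not pass. Of 26 measured break-chromatin factors 1 was called higher (H2ax) and 1 lower (Trp53bp1), and 5 had an unadjusted p under 0.05 (19.2%, beside 6.23% of all genes). The 5 were H2ax, Trp53bp1, Mdc1, Shld1 and Brcc3. Since H2ax, Trp53bp1 and Mdc1 are the genes mutated in the compared lines, the 19.2% does not measure the other break-chromatin factors. Shld1, a subunit of the shieldin complex that acts downstream of 53bp1, read 87.6, 73.8 and 43.0 in 53bp1-/- lines, against 107, 110 and 115 in H2ax-/- and 128, 74.0 and 114 in Mdc1-/- lines (-0.59, adjusted p = 0.72), and in irradiated arrays the difference was -0.00. None of 11 end-joining genes and none of 18 homologous recombination genes had an unadjusted p under 0.05, with medians of 0.03 and -0.08, beside a median of -0.04 over all genes.

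The p53 pathway showed no call. Of 29 measured p53 targets 0 passed and 0 had an unadjusted p under 0.05; their median was -0.16 in untreated and 0.04 in irradiated arrays. NF-kB genes (28 measured, median 0.02) and Stat5, Socs and Pim genes (18 measured, median 0.00) likewise had none at either threshold. Of 36 pre-B and B-cell genes Bach2 was the 1 called. Erg, a transcription factor of early lymphoid cells, read 6147, 1859 and 720 in 53bp1-/- lines, against 386 to 1299 (1.20, adjusted p = 0.79), with the first 53bp1-/- line far above the others.

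None of the genes listed for G2/M and mitosis or for G1/S and replication passed; Pttg1, which did, is on neither list. Of 31 G2/M and mitosis genes 8 had an unadjusted p under 0.05 (25.8%, beside 6.23% of all genes), 2 higher and 6 lower in 53bp1-/- lines, with a median of -0.08. The median deviation from the mean of the 6 other arrays was -0.29 in 53bp1-/- replicate 1, -0.003 in replicate 2 and 0.01 in replicate 3. In irradiated arrays the median difference was 0.01, with 16 of 31 higher. Kif23, a kinesin of the midzone, read 2060, 2709 and 2838 in 53bp1-/- lines, against 1514 to 2355 (0.46), while a dimmer Kif23 probe set, at 81.6, 76.3 and 109 against 13.8 to 30.7, differed by 1.46 and passed over all probe sets (adjusted p = 0.0249). Dlgap5, a spindle protein gene, read 1240, 1696 and 1570, against 997 to 1138 (0.49). Cdc25b, a phosphatase that activates Cdk1, read 1090, 1288 and 1288 in 53bp1-/- lines, against 1292 to 1813 (-0.44), and Ttk, a kinase of the spindle checkpoint, differed by -0.40. On the probe sets that stood for these genes the adjusted p was 0.47 to 0.52. Of 35 G1/S and replication genes 2 had an unadjusted p under 0.05 (5.71%, near the share of all genes), with Orc6 at 0.41 and Orc1 at -0.35, both subunits of the origin recognition complex.

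Glycolysis and hypoxia genes were higher in number but none passed. Of 26 measured members 25 had a positive difference, where 5149 of 12363 genes did, and 0 passed. Their median was 0.30 in untreated and 0.30 in irradiated arrays, beside -0.04 over all genes. At an unadjusted p under 0.05 there were 7 (26.9%, beside 6.23% of all genes), 6 higher and 1 lower. For 5 all 53bp1-/- lines lay above the 6 others, beside 1.42% of all genes. Against H2ax-/- lines alone 23 of 26 were higher (median 0.32), against Mdc1-/- lines 23 (median 0.27), and against WT lines 19 (median 0.16). By line, the median deviation from the mean of the 6 arrays was 0.37, 0.19 and 0.20.

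Vegfa, an angiogenic factor induced by hypoxia, read 2770, 2599 and 2291 in 53bp1-/- lines, against 1548, 1622 and 2162 in H2ax-/- and 1604, 1691 and 1506 in Mdc1-/- lines (0.60 ± 0.16, adjusted p = 0.23). Slc2a1, a glucose transporter gene, read 2549, 2830 and 2088 in 53bp1-/- lines, against 1484 to 2050 (0.53 ± 0.14, adjusted p = 0.25). Ankrd37, a hypoxia-induced ankyrin-repeat gene, read 1239, 1542 and 860 in 53bp1-/- lines, against 119 to 697 (1.31 ± 0.45, adjusted p = 0.52). Aldoc, an aldolase gene, read 5143, 991 and 2038 in 53bp1-/- lines, against 117 to 2354, with overlap (2.25 ± 0.83, adjusted p = 0.59). Adm was the exception, at -0.91. The growth state of each line at collection is not given in the sources used here.

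**Figure D5:**
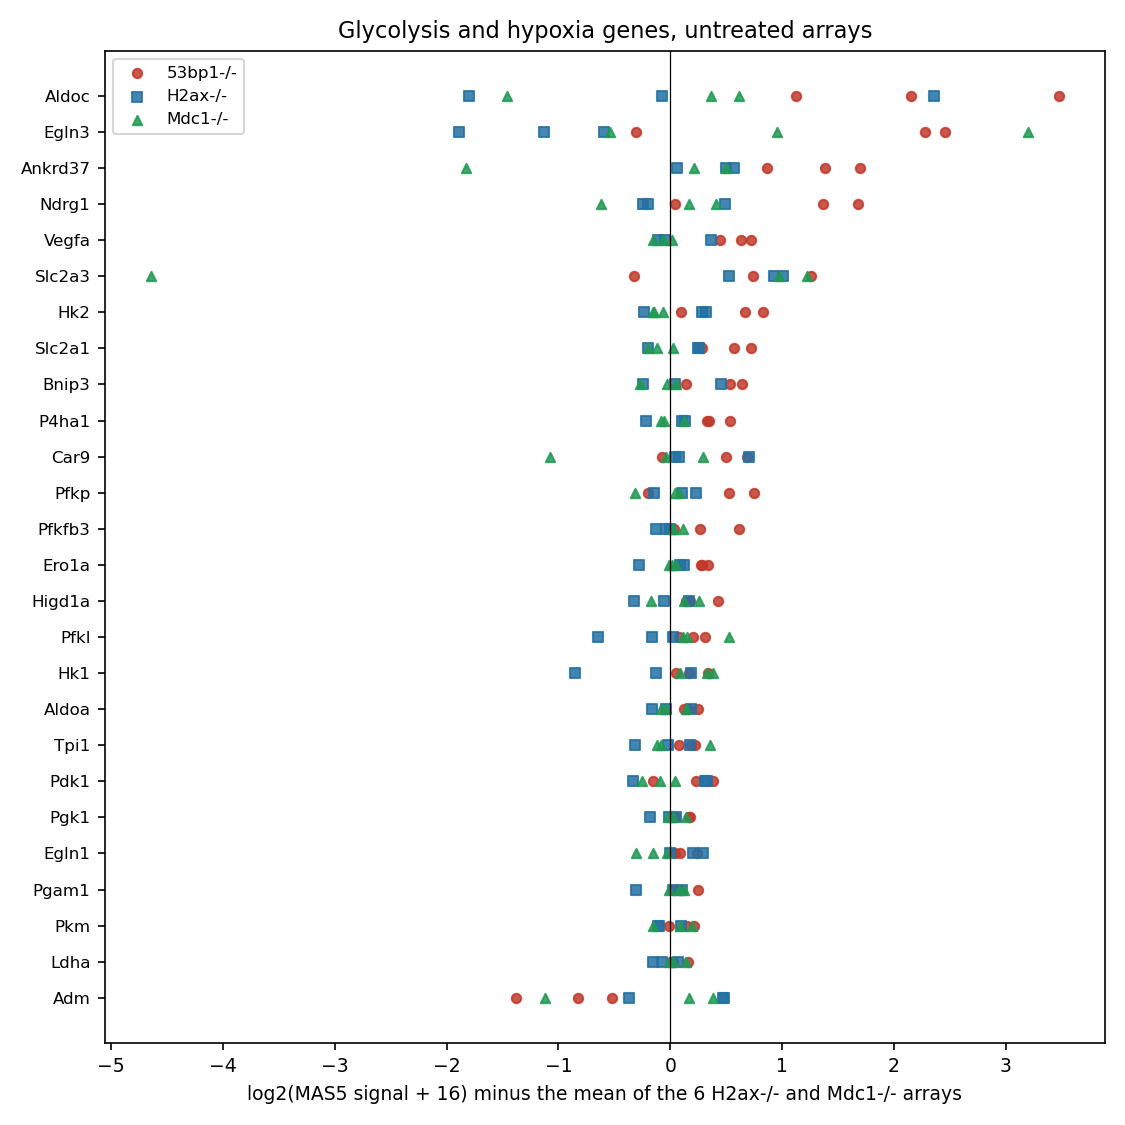
Log2(MAS5 signal + 16) of 26 glycolysis and hypoxia genes in each untreated array, minus the mean of the 6 H2ax-/- and Mdc1-/- arrays, with the highest 53bp1-/- mean on top. The 53bp1-/- points lie to the right of 0 on average for 25 of 26 genes and to the left for Adm, and most overlap the other points.

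In the remaining lists 0% to 18.8% of the genes had an unadjusted p under 0.05, beside 6.23% of all genes. Interferon-response genes had 3 of 27 at an unadjusted p under 0.05 (median 0.04), with Xaf1 at 0.89 against both mutants but -0.02 against H2ax-/- lines alone, and Trim30a at 0.66. The other Xaf1 probe set differed by -2.64 without passing. MHC genes had 1 of 19, H2-M3, at 1173, 1106 and 1326 in 53bp1-/- lines, against 585 to 931 (0.61). Bcl2 family genes had 3 of 16, with Bcl2l2 at 0.65 and Bad at -0.45, a survival gene and a death-promoting gene, and Bcl2l11 at 0.54. The other Bcl2l2 probe set differed by -0.42, and of 5 Bcl2l11 probe sets 4 were positive. Heat shock and unfolded protein genes had 3 of 24, with Trib3 at 1.38 and Chac1 at 0.95, targets of the amino acid response, and Hspa1b at 1.53. Trib3 differed by 0.51 from H2ax-/- lines and by 2.26 from Mdc1-/- lines. For Hspa1b, 53bp1-/- replicate 3 read 2830 and replicates 1 and 2 read 256 and 246. Immediate-early genes had 2 of 23, Klf4 at 0.90 and Fosl2 at -0.84. Klf4 differed by 0.33 from H2ax-/- lines and by 1.47 from Mdc1-/- lines, which read 3.11 to 22.8. Myc network genes had 2 of 20, Mga at -0.41 and Mxd4 at -0.82, and Mga also lies 23 measured genes from Trp53bp1. Of 4 Mga probe sets 2 were lower, and the others differed by 0.19 and 0.07. On the probe sets that stood for them, none of these genes passed over all genes.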

How the data were processed

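RNA of 21 mouse pre-B cell lines had been hybridized to Affymetrix arrays, untreated and 2 h after 1 Gy. The authors deposited linear intensities per probe set, and the submitters' processing notes name MAS5, with its version not given in the sources used here. The mean of every array, with 2% of values trimmed from either end, was 500. The annotation of the platform named 34945 of 45101 probe sets with 1 gene; 932 had several, 9160 were unnamed here and 64 were controls. Chromosomes and gene order came from the RefSeq table of GRCm38.p6, in which 34741 of the named probe sets were found.

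A probe set was kept if it exceeded its own array's median on at least 3 of 42 arrays, and the kept set with the highest mean stood for its gene (12363 genes). In R 4.3.3, limma 3.58.1 fitted genotype means to log2(signal + 16) over the 21 untreated arrays (14 residual degrees of freedom), with trended moderated variances and two-sided p-values, Benjamini-Hochberg adjusted over all genes; under 0.05 a gene passed. Probe sets were adjusted over all 23245 kept sets with 1 symbol. The files were read with data.table (1.17.8), and matplotlib 3.10.9 (Python 3.11.15) drew the plots. The fit was tested on simulated data.

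Named genes were the targeted genes, the 12 largest differences each way among genes that passed without overlap, the 5 nearest to Trp53bp1 on each side and up to 4 per gene list; Arcn1, Pls3, Tmem87a, Bloc1s6, Rgcc, Dpagt1, Frmd5, B2m and Brcc3 were added after their values were seen. Members and lists were chosen with earlier results of these data known. Same-numbered lines of different genotypes correlated at -0.02 to 0.11 in their deviations (1 of 9 pairs over 0.1), so numbers were not taken as pairs. No batch is labelled. No detection calls were used. P-values measure the spread between lines.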

Additional observations from a re-analysis of the deposited data

Results flagged for a closer look

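In the 6 H2ax-/- and Mdc1-/- arrays, 5 of 69 named genes had 1 array far from the rest, where chance alone flags about 1 in 20. That rate is only a rough guide, since the arrays pool both genotypes and many of the genes were named for their differences. Vdr read 363 in H2ax-/- replicate 3, against 99.7 to 155 in the other 5 arrays, all above the 53bp1-/- lines. Shld1 read 74.0 in Mdc1-/- replicate 2, against 107 to 128, which put it within the range of the 53bp1-/- lines. Bcl2l2 read 218 in H2ax-/- replicate 3, against 412 to 459. Vegfa read 2162 in H2ax-/- replicate 3, against 1506 to 1691. Ankrd37 read 119 in Mdc1-/- replicate 2, against 484 to 697.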

How the results depend on the processing

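The 27 genes kept their direction in all 22 other settings (Pls3 and Vdr were tested in 21). Ccnb1ip1, Clec16a, H2bc21, Supt16 and Vdr passed wherever they were tested, and 8 genes, those 5 with H2ax, Rpgrip1 and Trp53bp1, passed with any 1 array left out. The count was 9 to 26 over the 9 left-out arrays, 46 with all 42 arrays and the line as a random block, and 18 to 40 in the other settings. With the replicate block it was 25, although the numbers do not pair the lines. Trp53bp1 was -1.23 to -0.85 with 1 array left out, -0.70 (adjusted p = 0.34) with the mean of kept probe sets, and -1.05 with adjusted p = 0.11 when H2ax-/- and Mdc1-/- formed 1 group of 9 arrays. Among the 50 neighbours of Trp53bp1 the count was 1 with 9 arrays and 3 means, with the line block and with the replicate block, Tmem87a each time, and 0 to 1 with 1 array left out (Bloc1s6, without H2ax-/- replicate 3).

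Against H2ax-/- alone the count was 10 without a filter, 41 with 9 arrays, 52 with the line block, 15 with the replicate block, 14 without a variance trend and 9 to 19 with 1 array left out. Against Mdc1-/- alone it was 22 with the mean of kept probe sets, 34 with 9 arrays, 39 with 42 independent arrays, 54 with the line block and 9 to 24 with 1 left out. In irradiated arrays it was 44 with 9 arrays and 5 to 21 with 1 left out. For H2ax-/- against the others it was 33 with 9 arrays, 31 with the line block, 10 with the replicate block and 5 to 12 with 1 left out, and for Mdc1-/- it was 35 with the line block and 5 to 22. With the mean of kept probe sets Catsper2 turned to -0.054 and Xaf1 to -0.87. With 1 array left out Catsper2 ranged from -0.081 to 0.36, Pdia3 from -0.23 to 0.056 and Strc from -0.48 to 0.078. The cause was not tested. With 3 lines a genotype, and with signals under the array medians for genes such as Vdr and Isl2, small changes are beyond the reach of these arrays.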
